A study of Mus musculus with 2 samples.

Results

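The 8 genes described here encode the pore-forming alpha1 subunits of neuronal voltage-gated calcium channels. They were taken by symbol from the 32285 genes counted in single nuclei of mouse brain: Cacna1a (P/Q-type), Cacna1b (N-type), Cacna1c and Cacna1d (L-type), Cacna1e (R-type), and the T-type genes Cacna1g, Cacna1h and Cacna1i. The study asked what subarachnoid haemorrhage (SAH) does to the route from the centrolateral thalamus to the medial prefrontal cortex. Male C57BL/6J mice, aged 6-8 weeks per the labels and older in the study's methods, underwent SAH by endovascular puncture and were killed 12 h later. Tissue of the same region from other mice formed the control, labelled Normal in the deposited samples and called sham in the study, so whether these controls were operated on is not settled here. Each condition was a single library of nuclei pooled from 3 mice, taken from 1 hemisphere between the prefrontal cortex and the centrolateral nucleus. With 1 library per condition no test between conditions was possible. Every interval below is a 95% interval of counting error only, or, for a share of nuclei, of the draw of nuclei only. Nuclei of 1 library are not replicates of a condition. The injury cannot be told apart from differences between the pools, dissections or libraries.

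A voltage-gated calcium channel opens when the membrane is depolarised and lets calcium enter the cell. P/Q-, N- and R-type channels feed transmitter release and dendritic calcium signals, L-type channels couple activity to gene transcription, and T-type channels open at voltages close to rest. In thalamic relay neurons the T-type current carries the low-threshold spike that turns tonic firing into bursts during sleep and inattention, and in the thalamic reticular nucleus it sustains rhythmic bursting. The pore subunit sets the channel class. In P/Q-, N-, R- and L-type channels, beta and alpha2delta subunits bring the pore subunit to the membrane and shape its gating.

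The pore is lined by 4 repeats, each with 1 acidic residue that selects for calcium. The T-type genes differ from the other members at this point, and the coding sequence around the codon of repeat 4 is printed here because it separates the 3 T-type genes from the other 5. Sequences run 5′ to 3′ on the coding strand and come from the GENCODE M21 transcripts (GRCm38, the build of mm10), each inside 1 coding exon, with the codon of the selectivity residue in capitals.
Cacna1a: agcgccacaggaGAAgcgtggcacaacatc
Cacna1b: agtgccactgggGAGgcctggcatgagatc
Cacna1c: tgtgccaccggaGAGgcctggcaggacatc
Cacna1d: tgtgcaacagggGAAgcctggcaggagatc
Cacna1e: agtgccacggggGAGgcttggcaggagatt
Cacna1g: gtctccactggtGACaactggaatggtatt
Cacna1h: gtgtccactgggGACaactggaatgggatc
Cacna1i: gtctccacaggcGATaactggaatgggatt
The first 5 genes carry a glutamate codon (GAA or GAG) and the 3 T-type genes an aspartate codon (GAC or GAT). In repeat 3 the same split held, with GAT in all 3 T-type genes, whereas repeats 1 and 2 encode glutamate in all 8. The T-type stretches lie at chr11:94416412-94416441 (Cacna1g, minus strand, exon 32 of 38), chr17:25377768-25377797 (Cacna1h, minus strand, exon 31 of 35) and chr15:80388485-80388514 (Cacna1i, plus strand, exon 31 of 37). The genes also differ in size, which matters where intronic reads are counted: the T-type genes span 59.5 kb (Cacna1h), 65.8 kb (Cacna1g) and 111 kb (Cacna1i), Cacna1b 159 kb, Cacna1a 252 kb, Cacna1d 452 kb, Cacna1e 494 kb and Cacna1c 609 kb.

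After filtering, 10955 Normal and 15536 SAH nuclei remained of 12204 and 18209, with median depths of 6868 and 7840 unique molecular identifiers (UMIs) per nucleus. Of the barcodes, 78 occurred in both libraries, 53 of them among kept nuclei. The Normal matrix holds fewer barcodes than the control nuclei the study states, and the SAH matrix more than its SAH nuclei, so whether these are the matrices the study analysed is not known. Clustering without the members or their partner genes gave 48 clusters, of which 31 were named from marker lists, and these formed 18 neuron classes (15497 nuclei) and 3 glial ones. Names end in "-like" because they rest on rebuilt clusters. 1 class met its list for the amygdala but was led by Il1rapl2, Rspo2, Etv1 and Deptor, and it is called the Rspo2 and Etv1 excitatory cluster. The median log2 ratio of all genes, SAH over Normal, lay between -0.20 and -0.08 in the neuron classes, so a ratio of 0 is slightly above the typical gene.

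Thalamic relay-like nuclei numbered 409 in Normal and 801 in SAH, in 2 clusters, at median depths of 13532 and 14628 UMIs. All 10 of their listed markers were higher than in the other neuron classes pooled. The transcription factor Lef1 stood at 448 CPM, its UMIs per 1000000 UMIs of the class, against 3.96, Tcf7l2 at 516 against 15.3 and Synpo2 at 1071 against 8.53. Several of these markers were lower in SAH, with Lef1 at 654 CPM in Normal and 343 in SAH, Prkcd at 266 and 145, and Tcf7l2 at 696 and 424, while Synpo2 was at 950 and 1133. Oligodendrocyte marker RNA (6 genes summed) was 71.2 CPM in Normal and 56.1 in SAH thalamic-like nuclei, and the 6 microglial markers summed to 102 and 128 CPM. Whether these shifts bear on the values below was not tested.

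Thalamic reticular-like nuclei were fewer, 43 in Normal and 65 in SAH, in 1 cluster. All 6 of their listed markers were higher than in the other neuron classes, among them Six3 at 110 CPM against 2.33 and Spp1 at 58.5 against 2.19. Genes outside the list, such as Fign and Plch1, led this cluster.

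The 3 T-type genes divided between thalamic classes. Cacna1g, the T-type gene of relay neurons, was highest in thalamic relay-like nuclei in both libraries, at 134 CPM (125 to 144) in Normal and 90.4 CPM (85.2 to 95.9) in SAH. The next class in Normal, the Rspo2 and Etv1 excitatory cluster, stood at 59.0 CPM and its interval did not overlap. In SAH the next class was subcortical glutamatergic-like, at 47.3 CPM. Against all other neuron classes pooled, the log2 difference in level was 1.77 (1.66 to 1.88) in Normal and 1.78 (1.68 to 1.88) in SAH, so its excess in thalamic relay-like nuclei was of the same size in both libraries. Below the first class, most neighbours in the order of levels had overlapping intervals. Low levels in both libraries were found in layer 6 corticothalamic-like nuclei, at 4.89 CPM in Normal and 3.51 in SAH, and in parvalbumin-like interneurons, at 4.24 and 4.63 CPM, and in Normal dentate granule-like nuclei were as low, at 4.37 CPM. Oligodendrocyte-like nuclei held 4.91 and 2.55 CPM and microglia-like nuclei 8.26 and 5.84.

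Cacna1i was highest in thalamic reticular-like nuclei, at 96.5 CPM (72.5 to 126) in Normal and 84.7 CPM (65.7 to 108) in SAH, from 54 and 67 UMIs. Middle layer cortical-like nuclei followed at 73.8 CPM in Normal, with an overlapping interval, and at 51.6 CPM in SAH, where the intervals did not overlap. In thalamic relay-like nuclei Cacna1i was at 4.77 CPM in Normal, the lowest of the 18 neuron classes, and at 7.77 CPM in SAH, where dentate granule-like nuclei (7.25) and caudal-like interneurons (5.69) were lower, with overlapping intervals between neighbours. Microglia-like nuclei gave 4.82 and 4.50 CPM and oligodendrocyte-like nuclei 6.00 and 2.68, and the relay-like interval overlapped both in Normal and that of microglia-like nuclei in SAH.

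Cacna1h was highest in dentate granule-like nuclei, at 82.3 CPM (67.8 to 98.9) in Normal and 64.2 CPM (55.1 to 74.4) in SAH, ahead of layer 5 extratelencephalic-like nuclei at 56.3 and 48.9 CPM, with no overlap of intervals in either library. In the thalamus it was found in reticular-like nuclei, at 35.7 and 29.1 CPM from 20 and 23 UMIs, and was 2.54 and 2.67 CPM in relay-like nuclei from 16 and 33 UMIs. That last level is within the intervals of microglia-like nuclei, 4.13 CPM (1.52 to 8.99) in Normal and 1.35 CPM (0.278 to 3.94) in SAH.

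**Figure D1:**
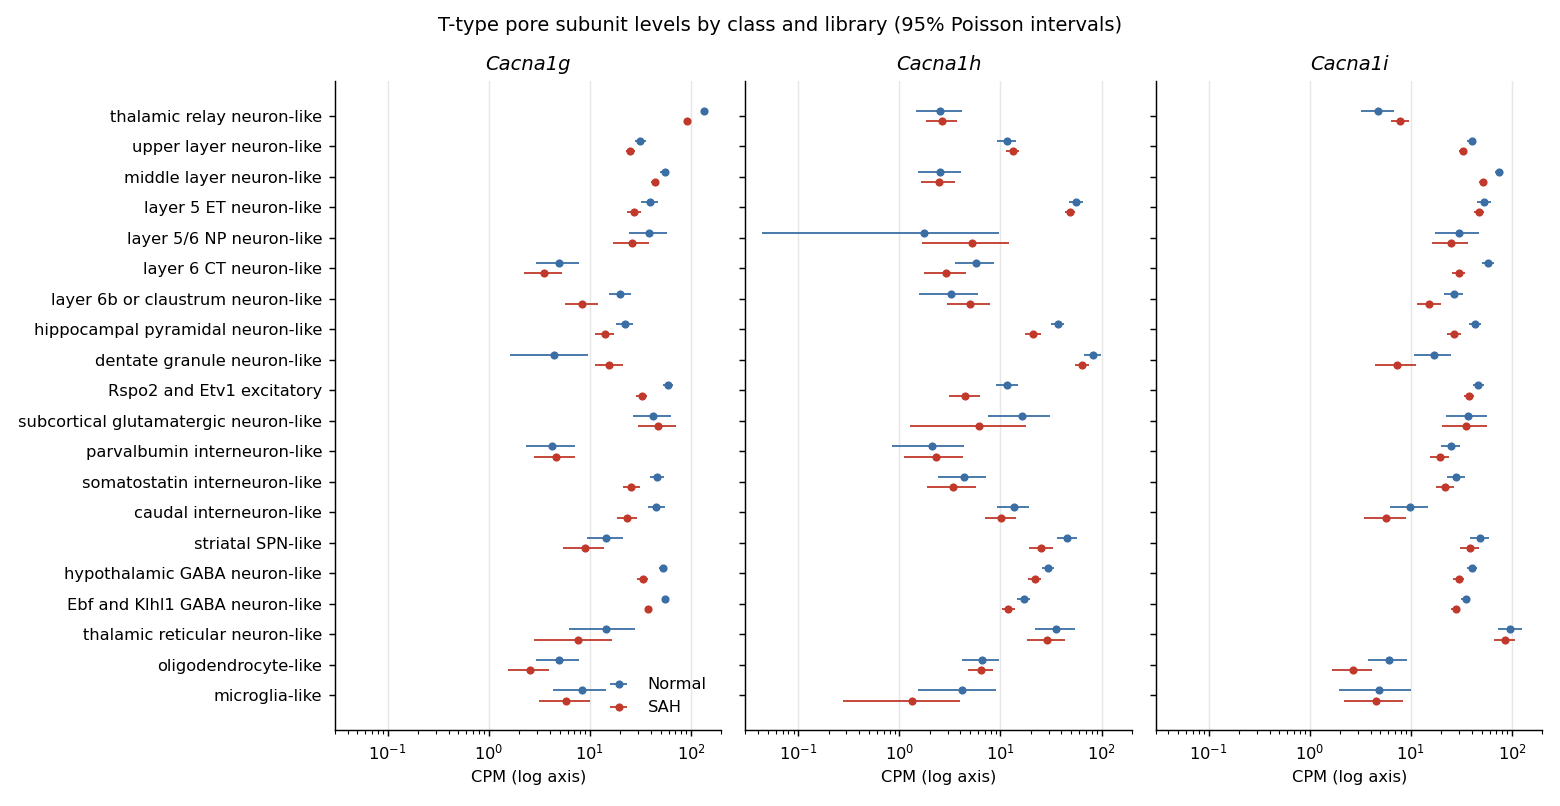
Each panel plots 1 T-type gene, with the level in CPM on a log axis for each class; points are the Normal (blue) and SAH (red) libraries and bars 95% Poisson intervals. Cacna1g peaks in thalamic relay-like nuclei (134 and 90.4), Cacna1i in thalamic reticular-like nuclei (96.5 and 84.7) and Cacna1h in dentate granule-like nuclei (82.3 and 64.2).

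Cacna1g was lower in SAH than in Normal in thalamic relay-like nuclei. The levels above rest on 845 UMIs in 409 Normal nuclei and 1117 UMIs in 801 SAH nuclei and give a log2 ratio of -0.57 (-0.70 to -0.44). Both clusters of the class showed it, with 126 CPM in Normal and 87.0 in SAH in the larger one (log2 ratio -0.53, -0.70 to -0.37) and 151 and 97.3 CPM in the smaller one (-0.63, -0.85 to -0.41). With every nucleus thinned to 5000 UMIs, 50.9% (45.8 to 56.0, exact binomial) of 387 Normal nuclei and 34.0% (30.7 to 37.5) of 761 SAH nuclei kept a Cacna1g UMI, with 22 and 40 shallower nuclei left out. Before thinning the shares were 79.5% and 67.3%. In layer 6 corticothalamic-like nuclei, which hold almost none of it, the thinned shares were 1.64% and 2.32% at median depths of 9807 and 10669 UMIs.

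The other T-type genes were too sparse in relay-like nuclei to carry a comparison. Cacna1h gave a log2 ratio of 0.07 (-0.83 to 1.03), and with 49 UMIs it was below the minimum of 50 used for counting. Cacna1i gave 0.71 (0.10 to 1.35), from 30 UMIs in Normal and 96 in SAH. Thinned to 5000 UMIs, 2.84% (1.43 to 5.03) of Normal and 4.07% (2.78 to 5.73) of SAH nuclei kept a Cacna1i UMI, and those intervals overlap. In reticular-like nuclei, where Cacna1i is abundant, its log2 ratio was -0.19 (-0.73 to 0.36), so a difference was not detectable at this depth.

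Of the other members in relay-like nuclei, Cacna1c was the most abundant per length of gene. Per 100 kb of span it stood at 317 CPM in Normal and 330 in SAH. Cacna1a followed at 297 and 219, Cacna1b at 205 and 205, Cacna1g at 204 and 137, Cacna1d at 84.5 and 79.4 and Cacna1e at 30.1 and 36.9. Cacna1h and Cacna1i were under 8 on this scale. On this scale relay-like nuclei held 3 abundant high-threshold genes and 1 T-type gene. The place of Cacna1g beside Cacna1b in Normal was not kept in SAH. The order differs in plain CPM, where Cacna1d (381 in Normal and 358 in SAH) was above Cacna1b (327 and 327). There Cacna1g (134 and 90.4) was below Cacna1e (148 and 182).

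Cacna1c, the L-type gene that is also the main calcium channel of heart muscle, had its highest neuronal level in relay-like nuclei, at 1929 CPM (1895 to 1964) in Normal and 2011 CPM (1986 to 2036) in SAH. Dentate granule-like nuclei came next with 1194 and 1443 CPM, with no overlap. Cacna1e, which carries R-type current, was low there, at 148 and 182 CPM against 552 and 627 in the other neuron classes pooled, and only thalamic reticular-like nuclei (91.1 and 98.6) and parvalbumin-like interneurons (70.5 and 76.1) had less in either library. The 2 relay-like clusters differed from each other in both genes and in the same way in both libraries. The larger cluster had Cacna1c at 1641 and 1700 CPM and Cacna1e at 211 and 254, and the smaller had Cacna1c at 2490 and 2639 and Cacna1e at 26.2 and 36.2. The clusters were made without these genes among the features. The smaller one was led by Synpo2, Lef1 and Plekhg1, which were also among the top genes of the larger, followed by Abhd12b, Prkcd and Adamts19.

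**Figure D2:**
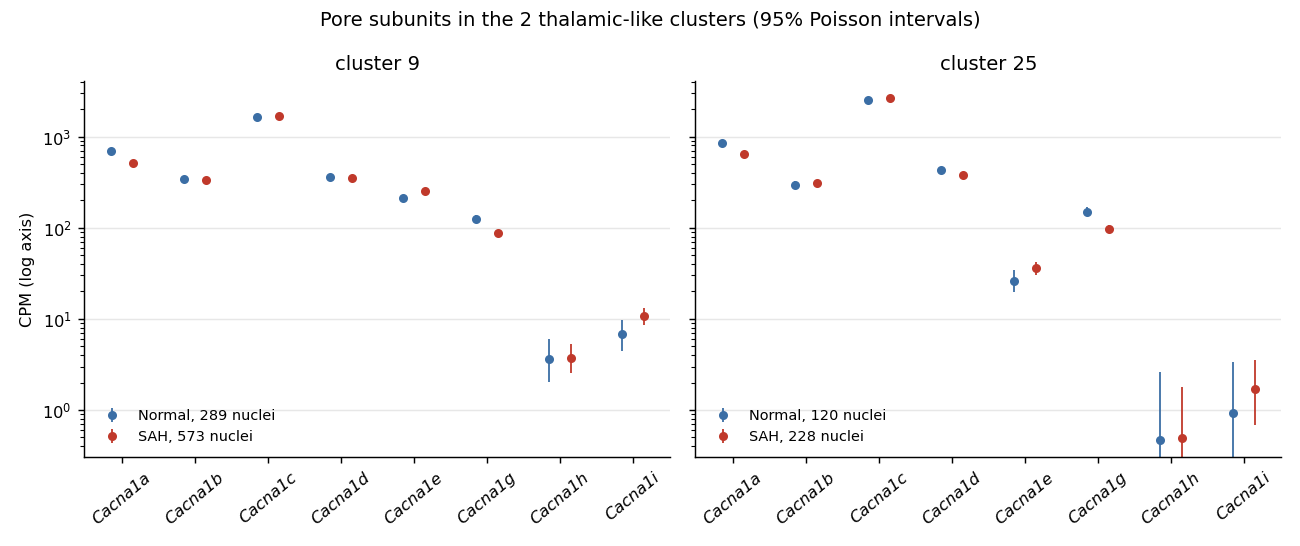
The level in CPM (log axis) of the 8 members is shown in the larger (cluster 9) and smaller (cluster 25) thalamic relay-like cluster, with 95% Poisson intervals, blue for Normal and red for SAH. Cacna1g is lower in SAH in both clusters, and Cacna1e is 211 and 254 in the larger cluster against 26.2 and 36.2 in the smaller.

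In relay-like nuclei 7 of the 8 members had at least 50 UMIs. Of these, 2 were below a log2 ratio of -0.25, the size used in the study's methods: Cacna1g, and Cacna1a at -0.44 (-0.49 to -0.38). Of all 12595 genes with at least 50 UMIs, 35.5% were below -0.25. 2 were above 0.25, against 22% of all genes: Cacna1e (0.29, 0.18 to 0.41) and Cacna1i, the latter too sparse to carry a comparison, as said above. These shares do not set the family apart from other genes. Cacna1b at 327 CPM in both libraries had a log2 ratio of 0.00 (-0.08 to 0.08), Cacna1c 0.06 (0.03 to 0.09) and Cacna1d -0.09 (-0.16 to -0.02).

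The members were then followed over all 18 neuron classes. Cacna1a, the P/Q-type gene that serves release at most central synapses, was lower in SAH in 17 of 18 with an interval below 0. The exception was layer 6b or claustrum-like nuclei, at 695 CPM in Normal and 678 in SAH (log2 ratio -0.04, -0.12 to 0.05). That class joins a cluster led by Ccn2 (152 Normal and 196 SAH nuclei) and a cluster led by Nr4a2 (68 and 29), so its mix differs between the libraries. A Cacna1a UMI was found in 76.8% of its Normal and 90.2% of its SAH nuclei. The part of this mix in the ratios of the class, here and below, was not tested. The largest difference was in upper layer cortical-like nuclei, at 908 CPM (887 to 929) in Normal and 544 (531 to 557) in SAH, a log2 ratio of -0.74 (-0.79 to -0.69). The median over the neuron classes was -0.43. The difference was not confined to neurons, with -0.37 (-0.60 to -0.14) in oligodendrocyte-like and -0.51 (-0.80 to -0.22) in microglia-like nuclei. In oligodendrocyte precursor-like nuclei the log2 ratio was -0.03 (-0.59 to 0.52). In the order of classes the lead was held by layer 5/6 near-projecting-like (1119 CPM), hippocampal pyramidal-like (1048) and middle layer cortical-like nuclei (1030) in Normal and by hippocampal pyramidal-like nuclei (767) in SAH, and striatal spiny projection-like nuclei were lowest in both (479 and 333). Of the 2996 genes with at least 50 UMIs in every neuron class, 4.87% had an interval below 0 in as many classes or more. Over all pairs of a gene and a neuron class, 31.6% had an interval below 0 and 16.1% above.

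Cacna1g had at least 50 UMIs in 11 neuron classes and was lower in SAH in all 11, with log2 ratios from -0.31 in middle layer cortical-like to -1.26 in layer 6b or claustrum-like nuclei and a median of -0.66. Relay-like nuclei, at -0.57, lie inside that range, so the difference there was not particular to the thalamus. In all 11 the interval lay below 0 and the ratio below the class median of all genes. Over all pairs of a gene and a neuron class, 31.6% had an interval below 0. The share of all genes lower in as many of these classes was not counted. Caudal-like interneurons went from 45.3 to 23.4 CPM, somatostatin-like interneurons from 46.1 to 25.8 and hypothalamic-like GABA nuclei from 52.9 to 33.1. Of the classes below the minimum, 3 had a ratio above 0. Dentate granule-like nuclei held 6 UMIs in Normal and 43 in SAH (4.37 and 15.6 CPM). With 49 UMIs in all, just under the minimum, their log2 ratio was 1.84 (0.60 to 3.36), opposite in direction to the 11 classes. Subcortical glutamatergic-like nuclei (0.18, -0.72 to 1.08) and parvalbumin-like interneurons (0.13, -0.93 to 1.22) had intervals that spanned 0.

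Cacna1h could be counted in 9 classes, with an interval below 0 in 6 and above 0 in none. It was lower in SAH in hippocampal pyramidal-like (36.8 and 21.2 CPM), striatal spiny projection-like (45.9 and 25.3 CPM) and Rspo2 and Etv1 nuclei (11.7 and 4.48 CPM). Cacna1i could be counted in 14 classes, with an interval below 0 in 8 and above 0 in 1. That 1 is the relay-like class already described, where Cacna1i was sparse. Layer 6 corticothalamic-like nuclei, which project back to the thalamus, went from 57.6 CPM (50.1 to 65.9) in Normal to 29.7 CPM (25.7 to 34.2) in SAH, a log2 ratio of -0.96 (-1.24 to -0.67). After thinning to 5000 UMIs, 23.7% (19.0 to 28.9) of 304 Normal nuclei of that class kept a Cacna1i UMI. In SAH 15.9% (12.9 to 19.2) of 561 did. Beside the counts of classes for both genes, 31.6% of all pairs of a gene and a neuron class had an interval below 0 and 16.1% above. The share of all genes lower in as many of these classes was not counted for Cacna1h or Cacna1i.

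Of the 3 longest members, Cacna1e and Cacna1c were more often higher in SAH, and Cacna1d was not. Cacna1e had an interval above 0 in 13 of 18 classes and below 0 in 1, the Rspo2 and Etv1 cluster, at 616 CPM in Normal and 527 in SAH. Its highest level was in dentate granule-like nuclei, at 1213 CPM in Normal and 1400 in SAH, and its largest ratio in layer 6b or claustrum-like nuclei, at 895 and 1118 CPM (0.32, 0.25 to 0.39). Of the 2996 genes measured in every class, 10.9% had an interval above 0 in as many classes or more. Cacna1c had an interval above 0 in 10 classes and below 0 in 1, and its ratio was largest in striatal spiny projection-like nuclei, from 838 CPM (796 to 882) to 1232 CPM (1186 to 1278), a log2 ratio of 0.56 (0.46 to 0.65). Upper layer cortical-like nuclei went from 770 to 1006 CPM (0.39, 0.34 to 0.43). Cacna1b and Cacna1d had the medians over the classes nearest 0, at -0.07 and 0.04. Cacna1b had an interval above 0 in 1 class and below 0 in 7, down to a ratio of -0.33 in layer 6b or claustrum-like nuclei. Cacna1d had an interval above 0 in 3 classes and below 0 in 4. Of all pairs of a gene and a neuron class, 16.1% had an interval above 0 and 31.6% below. The share of all genes that reach as many classes was not counted for Cacna1b, Cacna1c or Cacna1d.

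**Figure D3:**
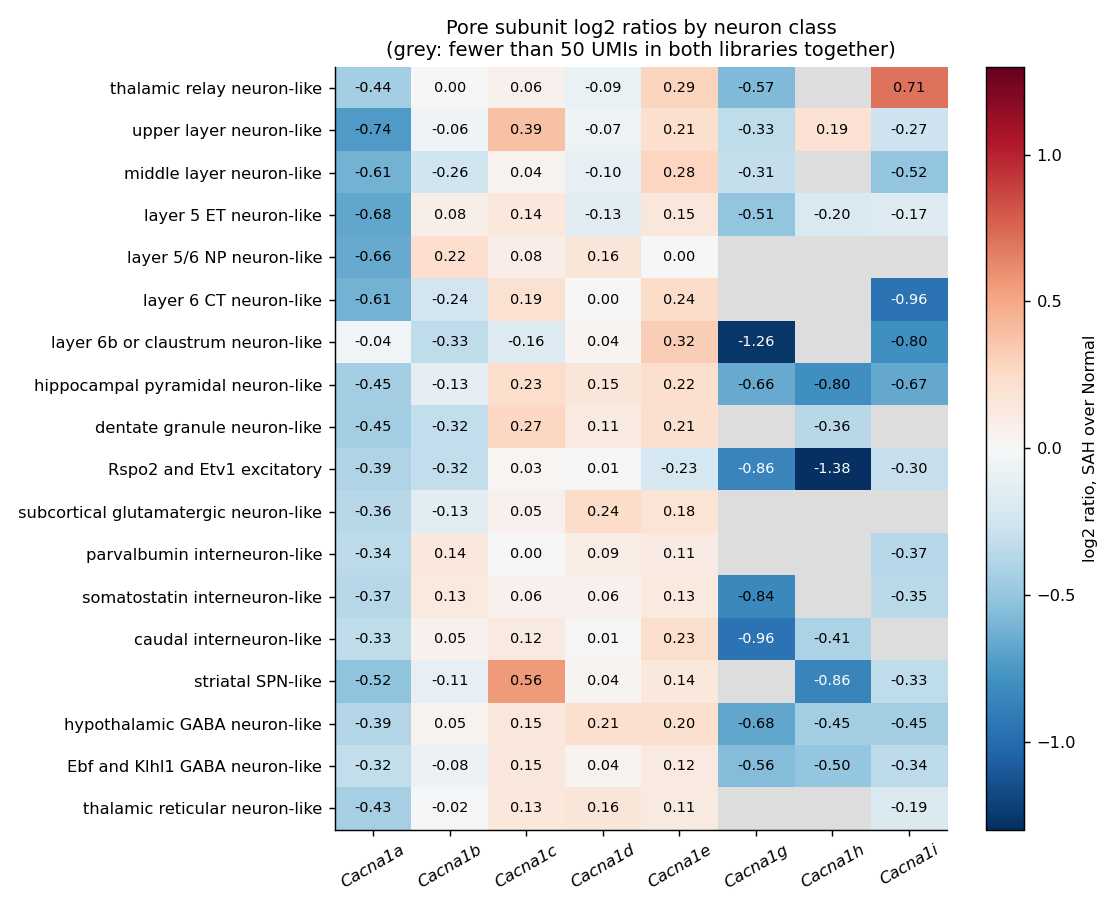
Each cell gives the log2 ratio, SAH over Normal, of 1 member (columns) in 1 neuron class (rows), blue where lower and red where higher in SAH, and grey where the gene had fewer than 50 UMIs. The Cacna1a column runs from -0.74 to -0.04 and all 11 filled cells of Cacna1g are negative, while Cacna1e is above 0 in all but the Rspo2 and Etv1 and the layer 5/6 near-projecting classes.

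The ratios ran with the length of the gene, for genes in general. In relay-like nuclei the 436 genes spanning over 350 kb had a median log2 ratio of 0.20, the 531 genes of 200 to 350 kb 0.14, the 1392 genes of 70 to 120 kb 0.02 and the 6348 genes of up to 30 kb -0.25. The same order held in the median over the neuron classes, from 0.20 in the longest to -0.36 in the shortest. Set against the 500 genes nearest in length, Cacna1a and Cacna1g remained below 0 in every class counted, with medians of -0.53 and -0.57. Cacna1c was then above 0 in 4 classes and below in 14, with a median of -0.04, and Cacna1e above in 11 and below in 7, with a median of 0.03. Cacna1c in striatal spiny projection-like and upper layer cortical-like nuclei stayed above, at 0.41 and 0.18. The part of gene length, or of intronic RNA, in these ratios was not tested.

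**Figure D4:**
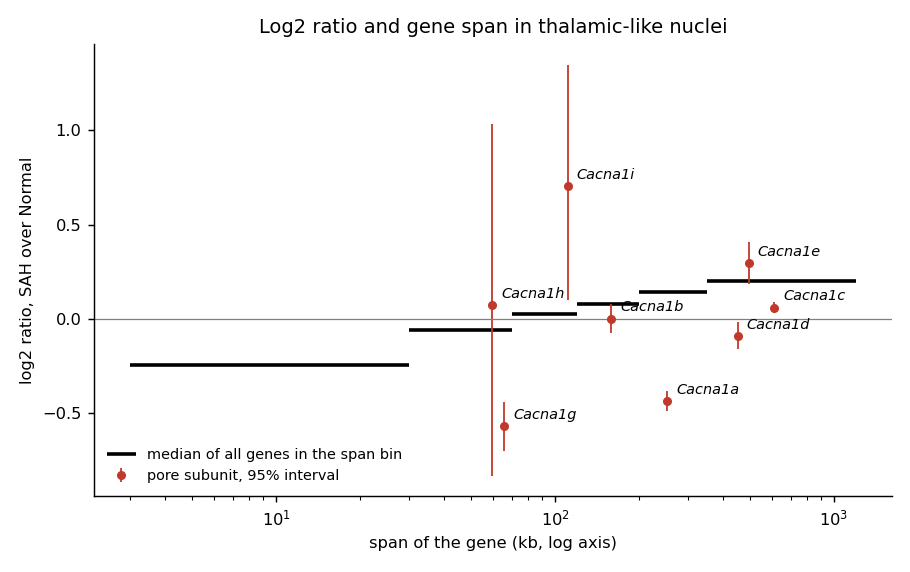
The log2 ratio of each member in thalamic relay-like nuclei (red, 95% intervals) is plotted against the span of its gene (kb, log axis), with black bars at the median of all genes in each span bin. Cacna1g (-0.57) and Cacna1a (-0.44) lie well below the bar of their bin, and Cacna1e (0.29) lies near the bar of the longest genes (0.20).

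Outside the neurons, Cacna1d was the most abundant member in microglia-like nuclei per length of gene, at 63.0 CPM per 100 kb of span in Normal and 122 in SAH. This L-type gene opens at more negative voltages than Cacna1c. Microglia-like nuclei held 284 CPM (257 to 313) in Normal and 553 CPM (523 to 585) in SAH, from 413 and 1230 UMIs, a log2 ratio of 0.96 (0.80 to 1.12). In CPM the SAH value is as high as in layer 6 corticothalamic-like nuclei, the neuron class with most Cacna1d (571 and 572 CPM). Median depths in SAH were 1748 UMIs in microglia-like and 10669 in layer 6 corticothalamic-like nuclei. A like CPM therefore does not mean like UMIs per nucleus. Oligodendrocyte precursor-like nuclei, 36 in Normal and 38 in SAH, held 203 and 343 CPM from 36 and 53 UMIs (0.75, 0.12 to 1.41). A higher value in SAH was thus not seen in microglia-like nuclei alone. The oligodendrocyte markers in these precursor-like nuclei summed to 2820 CPM in Normal and 375 in SAH. What part that difference has in the precursor-like ratio was not tested. Oligodendrocyte-like nuclei held 24.7 to 36.2 CPM in Normal and 28.3 to 36.4 CPM in SAH. In microglia-like nuclei the 6 microglial markers summed to 14719 CPM in Normal and 8020 in SAH, the oligodendrocyte markers to 432 and 230 CPM, and the mitochondrial share was 0.347% and 0.224%. Their part in the Cacna1d ratio was not tested. The other members in microglia-like nuclei were between 1.35 and 134 CPM in either library. Most Normal nuclei of this class were in 1 of its clusters (544 against 445) and most SAH nuclei in the other (893 against 316). Within the first, Cacna1d was 295 and 520 CPM (0.82, 0.59 to 1.05), and within the second 260 and 567 CPM (1.12, 0.85 to 1.41). With doublets kept, or without integration, the log2 ratio of the class was 0.51. After thinning to 1000 UMIs, 21.4% (18.5 to 24.6) of 742 Normal and 35.0% (32.3 to 37.9) of 1133 SAH nuclei kept a Cacna1d UMI, from median depths of 1370 and 1748 UMIs. Before thinning the shares were 28.8% and 51.5%, against 6.06% and 7.36% of oligodendrocyte-like nuclei at median depths of 1928 and 2268 UMIs.

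The partners of the channels in relay-like nuclei were read from 6 lists. Of the 4 alpha2delta genes, the targets of gabapentin-type drugs among them, Cacna2d2 was below -0.25 (-0.28, -0.48 to -0.07) and none was above 0.25, with a list median of -0.12 over genes with at least 50 UMIs, against -0.09 for all genes. The beta genes (median -0.23) split: Cacnb2 was at 909 CPM in Normal and 1221 in SAH (0.42, 0.38 to 0.47), and Cacnb4 at 741 and 581 (-0.35, -0.41 to -0.30). A sparser beta gene, under 200 UMIs, was also below -0.25. Of the 8 gamma genes 6 had at least 200 UMIs, with a median of 0.01. Cacng2, Cacng3 and Cacng7 were above 0.25 and Cacng4 and Cacng5 below -0.25, several of them regulators of AMPA receptors rather than of calcium channels. Of all 12595 genes with at least 50 UMIs in relay-like nuclei, 35.5% were below -0.25 and 22% above 0.25. Those shares are over genes of all lengths, and whether these short lists differ from them was not tested. Set against the 500 genes nearest in length, Cacna2d1, Cacna2d2 and Cacna2d3 were at -0.30, -0.34 and -0.31, and Cacna2d4 at 0.11. Cacnb2 was then at 0.24 and Cacnb4 at -0.48.

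Among the genes that store and clear calcium, 2 pumps with at least 200 UMIs had a log2 ratio below -0.25. Atp2b1, a pump of the plasma membrane, was at 1377 CPM in Normal and 823 in SAH (-0.74, -0.78 to -0.70), and Atp2a2, the SERCA pump of the endoplasmic reticulum, at 645 and 413 (-0.64, -0.70 to -0.58). Of the 8 pumps and exchangers with at least 50 UMIs, 3 were below -0.25, these 2 and a sparser gene under 200 UMIs. That compares with 35.5% of all genes at the same minimum. None was above 0.25, and the list median was -0.18. The other members with at least 200 UMIs lay nearer the median of all genes. They ran from Slc8a1 at -0.21 (-0.25 to -0.16) to Slc8a3 at 0.19 (0.10 to 0.28), with Atp2b2 at -0.11 (-0.18 to -0.04) and Atp2b3 at 0.09. The count does not set the list apart. Set against the 500 genes nearest in length, Atp2b1 was at -0.79, Atp2a2 at -0.59, Slc8a1 at -0.40, Atp2b2 at -0.26 and Slc8a2 at -0.08. Atp2b3 and Slc8a3 were each at 0.12. Among the release channels, with a median of 0.13, Ryr3 was at 1199 and 930 CPM (-0.37, -0.41 to -0.33). Itpr1 was at 226 and 277 CPM (0.29, 0.20 to 0.38). Itpr2, at 12.2 and 34.5 CPM (1.50, 1.14 to 1.86), had the largest ratio of any listed gene with at least 200 UMIs. Against genes of like length Ryr3 was at -0.55, Ryr2 at -0.21, Itpr1 at 0.10 and Itpr2 at 1.31.

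Calcium-activated potassium channels (median 0.11) read the calcium that these pores admit. Kcnn2 is an SK channel driven by T-type calcium entry in reticular neurons. In relay-like nuclei it was at 246 CPM in Normal and 349 in SAH (0.50, 0.42 to 0.59). Kcnmb4, a beta subunit of the BK channel, was at 42.6 and 21.5 (-0.99, -1.24 to -0.74), the lowest ratio among listed genes with at least 200 UMIs. The BK pore Kcnma1 was at 1726 and 1792 (0.05, 0.02 to 0.09). Against genes of like length Kcnn2 was at 0.33, Kcnma1 at -0.14 and Kcnmb4 at -0.94. In reticular-like nuclei Kcnn2 was at 1017 CPM in Normal and 1034 in SAH (0.02, -0.13 to 0.18).

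**Figure D5:**
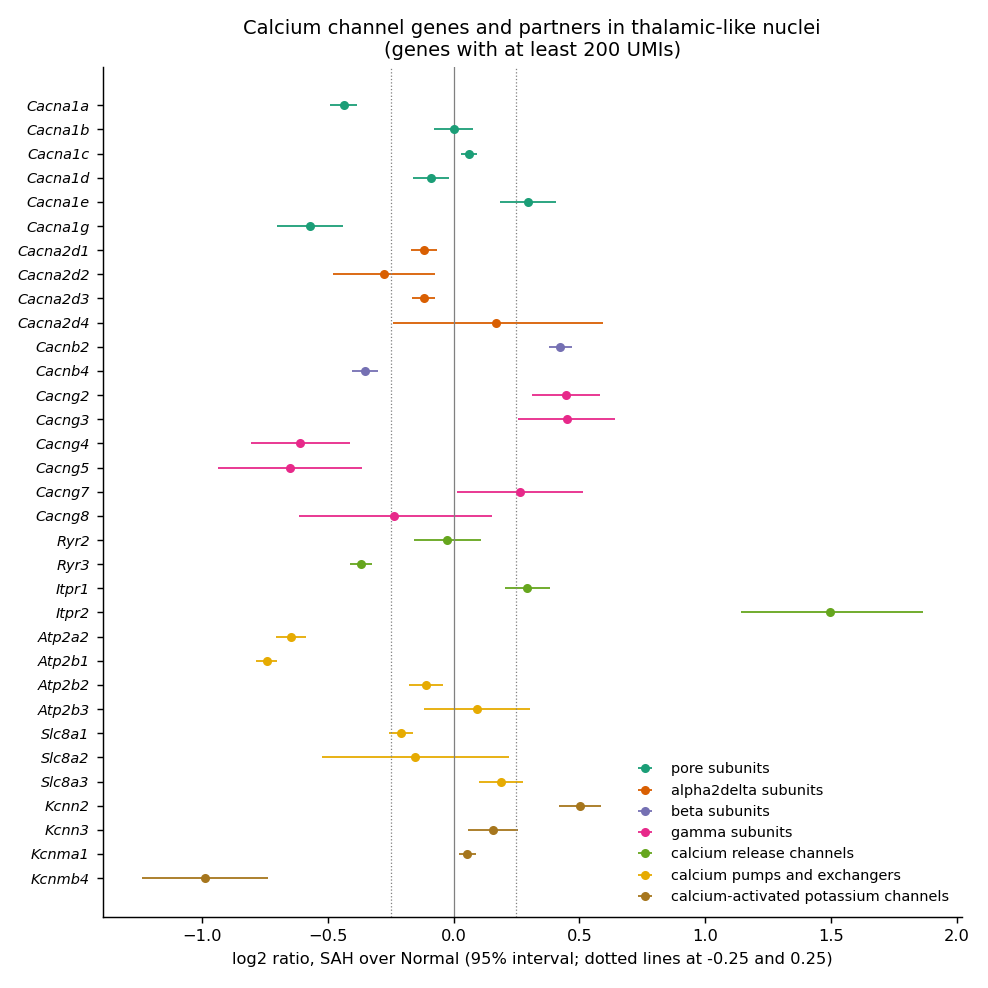
The log2 ratio, SAH over Normal, in thalamic relay-like nuclei is shown with 95% intervals for each pore subunit and partner gene with at least 200 UMIs, coloured by list, with dotted lines at -0.25 and 0.25. Itpr2 (1.50) is the highest and Kcnmb4 (-0.99) the lowest.

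The genes whose levels over the 18 neuron classes were most like each T-type gene were found among 16549 genes by Pearson's r of log2(CPM + 1), both libraries together. For Cacna1g they were Suclg2 (r = 0.79), Nell1 (0.77) and Gpc5 (0.76). For Cacna1h they were Ccdc6 (0.82), Zswim5 (0.78) and Med27 (0.77), and for Cacna1i Pfkfb3 (0.76), Tnfrsf9 (0.72) and Gm30382 (0.71). Tnfrsf9 rests on 292 UMIs. The points of each r are classes of the same 2 libraries, and the values are a description. They are the best of 16549 genes over 18 points, and how high r gets in such a search by itself was not tested.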

How the data were processed

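Single-nucleus RNA was measured in 2 libraries (Normal, SAH), each a pool of 3 mice. The authors aligned reads to mm10 with Cell Ranger (6.1.2 per the file headers, 5.0.0 per the labels), intronic reads included, and deposited UMI counts per gene and nucleus, with 114970719 UMIs in Normal and 172604358 in SAH. These counts are unnormalized. From them, nuclei with 300 to 7000 genes, under 10% mitochondrial and 3% haemoglobin UMIs and under 100000 UMIs were kept, and the highest Scrublet scores (scanpy 1.11.5) were removed at 0.8% per 1000 nuclei, 1178 in Normal and 2644 in SAH. Seurat 5.3.0 integrated the libraries (2000 features, 25 components, resolution 1.2), leaving the members and 6 partner lists out of the features. A cluster took a name when at least 3 of a type's markers were enriched, with a mean of at least 0.9 and a lead of 0.5 over the next list (log2). Further conditions concerned markers among its top 10 genes, its depth, and its glutamatergic and GABA markers. The rule was set after the clusters were seen. It left unnamed a shallow cluster of 70 Normal and 441 SAH nuclei with all 6 oligodendrocyte markers enriched. UMIs were summed per class and library into CPM with exact Poisson intervals, and ratios took exact conditional binomial intervals. In data simulated at the depth of the thalamic relay-like class, the ratio intervals held the true value for 95.5% of 12595 genes. That figure concerns counting error and says nothing of the spread between mice, pools or libraries. No test was run. Members, gene lists and markers were chosen with earlier results of these data known. Named were all members and the partner genes with at least 200 UMIs in relay-like nuclei that had the largest ratios or passed 0.25. Some partner genes with smaller ratios were named beside them, and so were the 3 genes most like each T-type gene. Gene spans come from GENCODE M21. Other annotated genes overlap 5 members on the opposite strand, among them Chdh and Dcp1a in Cacna1d (6 in all), Dcp1b in Cacna1c and Tpsg1 in Cacna1h, and Cacna1c and Cacna1d each hold 1 pseudogene on their own strand.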

Additional observations from a re-analysis of the deposited data

How the results depend on the processing

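Each value was recomputed under up to 12 alternative ways of filtering, clustering, naming, weighting and scaling. Of 245 comparisons of 22 values, 202 kept within the counting interval (or within 0.1 for a median over classes), and 43 went beyond it. No value past 0.25 in size changed sign. Of the smaller ones, Cacna1c in relay-like nuclei (0.06) and its median over the classes (0.12) became -0.13 and -0.04 when centred on genes of like length, and Cacna1b (between -0.09 and 0.09) and Cacna1h in relay-like nuclei fell on either side of 0. Cacna1g in relay-like nuclei kept a log2 ratio between -0.69 and -0.48 throughout, and Cacna1i between 0.35 and 1.04. Cacna1h, which rests on 49 UMIs, gave -0.96 when nuclei were named one by one and 1.61 when each nucleus was thinned, fewer UMIs being left in both. Cacna1d in microglia-like nuclei was higher in SAH under all 11 alternatives that gave it a value, at 0.51 to 1.15 on the log2 scale, with the lowest value both with doublets kept and without integration. The cause was not tested. Depth limits Cacna1h and Cacna1i in relay-like nuclei, whose levels are close to those of glia, and both genes in the 43 Normal and 65 SAH reticular-like nuclei. No paired analysis was possible because each condition is 1 library.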
